A study of Mus musculus with 12 samples.

Results

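The genes described here are 37 antiviral effector genes that interferons are known to induce, followed across SCC7 cells kept in 4 macrophage-conditioned media. They were taken by name: the OAS, IFIT, Mx, IFITM and apolipoprotein L genes, the ISG15 system, enzymes that act on RNA and nucleotides, and 9 other interferon-induced genes, with no guanylate-binding, IRF, Parp or Trim gene. One of them, Ifi47, is itself an immunity-related GTPase gene. All 37 were found by Ensembl identifier among the 55487 genes of the count table. SCC7 is a mouse squamous carcinoma line, and the labels give it as wild type throughout. Before RNA was taken it was kept for 24 h in medium from bone-marrow-derived macrophages, which had themselves been treated for 24 h. M0 CM came from macrophages in control DMEM, M1 CM from macrophages with 20 ng/ml interferon-gamma and M2 CM from macrophages with 20 ng/ml interleukin-4. TAM CM, short for tumour-associated macrophage medium, came from macrophages kept in 75% SCC7-conditioned medium. Each medium has 3 libraries, 12 in all.

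Interferons are secreted proteins that bind receptors on the cell surface and, through JAK kinases, activate STAT transcription factors. Type I interferons act mainly through a complex that holds STAT2 and IRF9 and binds the interferon-stimulated response element (ISRE). Interferon-gamma acts mainly through STAT dimers, which bind the gamma-activated site (GAS), and through IRF1 and related factors. The induced proteins degrade or bind viral RNA, edit it, deplete nucleotides, tether virus particles or block their entry. Tumour cells commonly keep some of these genes on without infection.

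Promoter sequence was shared within several of these families, so the stretches that carry it are shown first. RefSeq promoter windows (GRCm38.p6), from 250 bases before to 50 bases after a gene's start, were available for 29 of the 37 genes. The lines below run 5′ to 3′ on the strand of the gene, and capitals mark each match to the ISRE core GAAANNGAAA or to its reverse complement TTTCNNTTTC, in which N is any base. All are from genes whose window holds the core, pairs of near-identical copies among them. Ifi44 and Oasl1, which rose in TAM CM, have a window without the core and are not shown.
Isg15 (chr4:156200845-156200926, minus strand): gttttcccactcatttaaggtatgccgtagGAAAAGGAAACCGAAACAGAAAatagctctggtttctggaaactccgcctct
Ifit1 (chr19:34640755-34640843, plus strand): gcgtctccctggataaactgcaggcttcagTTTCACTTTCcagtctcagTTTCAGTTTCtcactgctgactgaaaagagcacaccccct
Ifit3 (chr19:34583343-34583446, plus strand): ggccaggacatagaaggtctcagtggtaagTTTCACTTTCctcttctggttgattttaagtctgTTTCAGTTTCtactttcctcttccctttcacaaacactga
Ifit3b (chr19:34607739-34607842, plus strand): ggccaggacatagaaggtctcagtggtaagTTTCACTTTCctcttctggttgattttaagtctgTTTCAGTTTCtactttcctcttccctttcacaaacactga
Oas1a (chr5:120907526-120907575, minus strand): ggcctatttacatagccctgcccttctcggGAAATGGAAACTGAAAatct
Oas1g (chr5:120887614-120887661, minus strand): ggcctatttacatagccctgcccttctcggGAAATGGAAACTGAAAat
Rsad2 (chr12:26456533-26456602, minus strand): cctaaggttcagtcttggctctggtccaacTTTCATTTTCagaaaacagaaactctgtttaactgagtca
Bst2 (chr8:71537557-71537632, minus strand): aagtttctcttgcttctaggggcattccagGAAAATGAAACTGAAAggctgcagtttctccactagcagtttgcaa
Isg15 holds 3 overlapping matches, Rsad2 holds 1, and Bst2, Oas1a and Oas1g hold 2 overlapping matches each. In Ifit1, Ifit3 and Ifit3b the 2 matches stand apart. The matches of these genes and that of Rsad2 read on the other strand. The Ifit3 and Ifit3b stretches were identical over 104 of 104 bases, and those of Oas1a and Oas1g over 48 of 48. Apol9a and Apol9b, not printed, each hold 2 overlapping matches, also on the other strand.

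Over all 29 windows, 14 genes (48.3%) held the ISRE core on either strand, beside 1079 of 27025 genes in the RefSeq table (3.99%). At least 2 matches, overlapping ones counted, were found in 11 genes (37.9%), beside 72 genes of the table (0.266%). The GAS motif TTCNNNGAA, which reads the same on both strands, was found in 7 genes (24.1%), beside 2582 genes (9.55%). Oas1a, Bst2 and Ifitm3 held both. A match is only a description of the letters in this window. Both copies of Ifit3 and Ifit3b, of Oas1a and Oas1g, and of Apol9a and Apol9b are counted. Their stretches with the core were identical over the bases compared, so the shares of the antiviral genes count the same sequence more than once. The ISRE core was found in 14 genes: Oas1a, Oas1c, Oas1g, Oas3, Ifit1, Ifit3, Ifit3b, Isg15, Rsad2, Bst2, Ifitm2, Ifitm3, Apol9a and Apol9b. No window was given for Oas1b, Oas2, Usp18, Mx1, Mx2, Apol6, Ifi27 and Rtp4.

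Levels are in CPM, the count scaled to a library of 1000000 with TMM-scaled library sizes. Libraries are named 1, 2 and 3 as the titles number them, and ± is the SD of n = 3 libraries. A gene is called higher or lower where edgeR's quasi-likelihood test gave a Benjamini-Hochberg adjusted p under 0.05 over all 14509 genes tested. Shares among all genes are of calls of any size, and no share of all genes at 2-fold was counted to set beside the 2-fold counts. Log2 fold changes carry a standard error (SE), which understates the counting error of a group far below 1 CPM. Library totals ran from 18996937 to 22596630 counts, so 1 CPM is at least 18.3 counts. Nothing in the labels says that libraries of a medium are from separate cultures, so a p-value reflects only the spread of these samples, which may be technical. Of markers of squamous epithelium, Krt8 and Krt18 were abundant and moved with the medium, while Krt5 had 2 counts in all 12 libraries, Krt14 had 10, Cdh1 had 10, and Krt6a, Epcam and Perp had 0. The 10 markers summed to 359 to 390 CPM in M0 CM and 166 to 170 CPM in M1 CM. They stood at 679 to 757 CPM in M2 CM and 90.7 to 101 CPM in TAM CM. Krt8 and Krt18 were called lower in M1 CM and TAM CM and higher in M2 CM than in M0 CM. Trp63 and Sfn were also tested and were faint (means over 12 libraries 0.838 and 0.918 CPM). Trp63 was called lower in M1 CM and TAM CM and not called in M2 CM. Sfn was called higher in TAM CM (log2 fold change 0.995, edgeR adjusted p = 0.0067) and not called in M1 CM or M2 CM. The part of these marker shifts in the results was not tested. The third M2 CM library is labelled melanoma in its cell type, unlike the other 11. Its summed melanocyte markers, nearly all Mitf, were at 6.80 CPM, beside 7.34 and 5.57 in the other M2 CM libraries, and Sox10 had 0 counts in all 12.

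Of the 37 genes, 36 passed the filter on low counts. Ifitm1, which encodes a membrane protein that hinders virus entry, did not: it had 3, 2 and 0 counts with M0 CM, 3, 8 and 6 with M1 CM, 4, 0 and 2 with M2 CM and 4, 2 and 0 with TAM CM. Oas2, Ifit3b, Rsad2, Cmpk2 and Ms4a4d passed only through their M1 CM libraries, so their difference there was bound to appear. In M0 CM, 10 of the 37 genes had a mean under 1 CPM, 14 lay between 1 and 10, 11 between 10 and 100, and 2 above 100. In M1 CM, 20 were above 100 CPM and 1 was under 1 CPM. Together the 37 genes held 0.0913 ± 0.000856% of all counts with M0 CM, 0.785 ± 0.0346% with M1 CM, 0.0778 ± 0.00209% with M2 CM and 0.0956 ± 0.00186% with TAM CM. Rnf213, the longest of them, made up 31.5% of those counts with M0 CM, 22.7% with M1 CM, 31.0% with M2 CM and 41.3% with TAM CM. In bulk RNA, fewer cells with a gene on and less of its RNA per cell cannot be told apart.

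**Figure D1:**
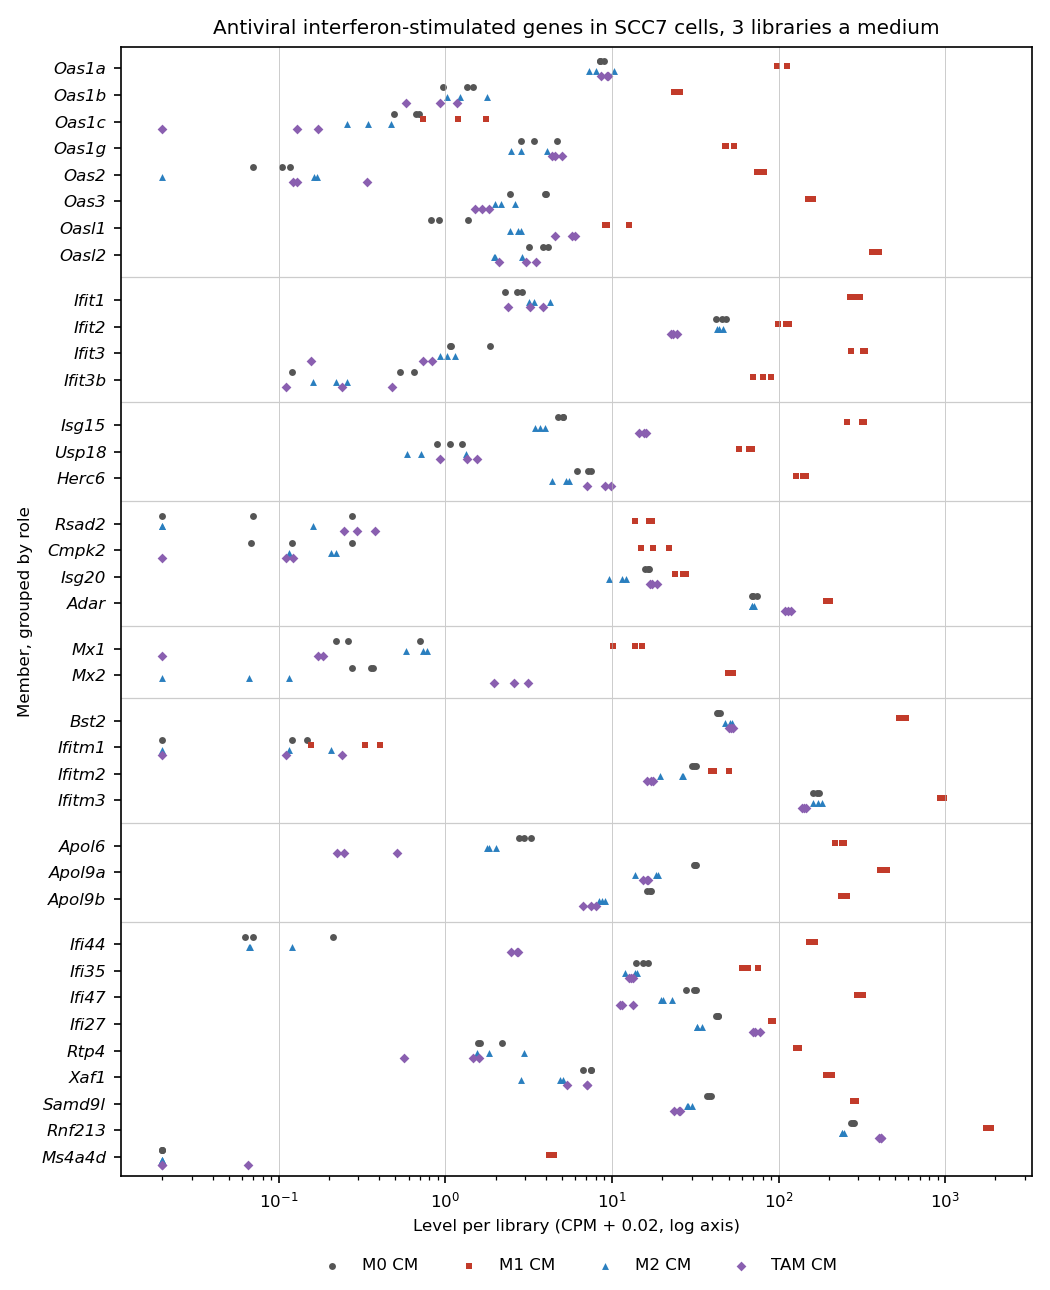
Level of each of the 37 genes in each library, in CPM plus 0.02 on a log axis, grouped by role, with a point for every library and colour and shape for the medium. For the 36 genes tested all M1 CM points lie to the right of the M0 CM points, while M2 CM and TAM CM points fall on either side of M0 CM. Points at the left edge are libraries with 0 counts.

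Per base of annotated exon, the order of the genes was different from that of their counts. In M1 CM the highest mean RPKM (CPM per 1000 bases of exon) belonged to Ifitm3, at 1413, followed by Bst2 at 617, Isg15 at 395, Ifit3 at 176 and Apol9b at 137. Rnf213, first by CPM, stood at 106 RPKM. In M0 CM Ifitm3 also led, at 249 RPKM, ahead of Bst2 at 48.1, Ifitm2 at 47.5 and Ifi27 at 29.1. Isg15 stood at 6.53 RPKM with M0 CM.

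SCC7 cells in medium from interferon-gamma-treated macrophages (M1 CM) had more RNA of every antiviral gene tested. All 36 were higher than in M0 CM and none was lower, with 34 at least 2-fold higher. The genes were listed with earlier results of these data known, so this count is a description and not a test of the list. Among all genes tested, 27.7% were higher and 25.6% lower. Their median log2 fold change was 4.30, beside 0.01 over all genes, and the values ran from 0.48 for Ifitm2 to 10.65 for Ifi44. Of the 31 genes that passed the filter without the M1 CM libraries, 31 were higher, with a median of 3.79. With library totals and no scaling factors, the split over all genes moved from 4023 higher and 3719 lower to 3219 and 4626, and no direction among the 36 turned. Whether interferon-gamma was taken off the macrophages before their medium was collected is not stated in the labels, so carried-over cytokine and macrophage products cannot be told apart.

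The sum of the macrophage markers moved in the same direction in M1 CM, though at low levels. The 13 markers summed to 22.7 to 23.8 CPM over the M0 CM libraries and 33.7 to 40.0 CPM over the M1 CM libraries, most of it Cd14. Of the 4 that were tested, Cd14, Cd68 and Mrc1 rose. Lyz2 was at 0.831 CPM with M0 CM and 0.422 CPM with M1 CM and was not called (log2 fold change -0.98, edgeR adjusted p = 0.0608). Tyrobp, C1qa, C1qb and C1qc had 0 counts in all 12 libraries and Itgam had 1. The 5 neutrophil markers summed to 0.193 to 0.255 CPM in M0 CM and 1.59 to 2.34 CPM in M1 CM, mostly S100a8 in M1 CM (mean 1.90 CPM) and mostly Mpo in M0 CM (mean 0.200 CPM). T and NK cell markers stayed at or under 0.136 CPM in every library.

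**Figure D2:**
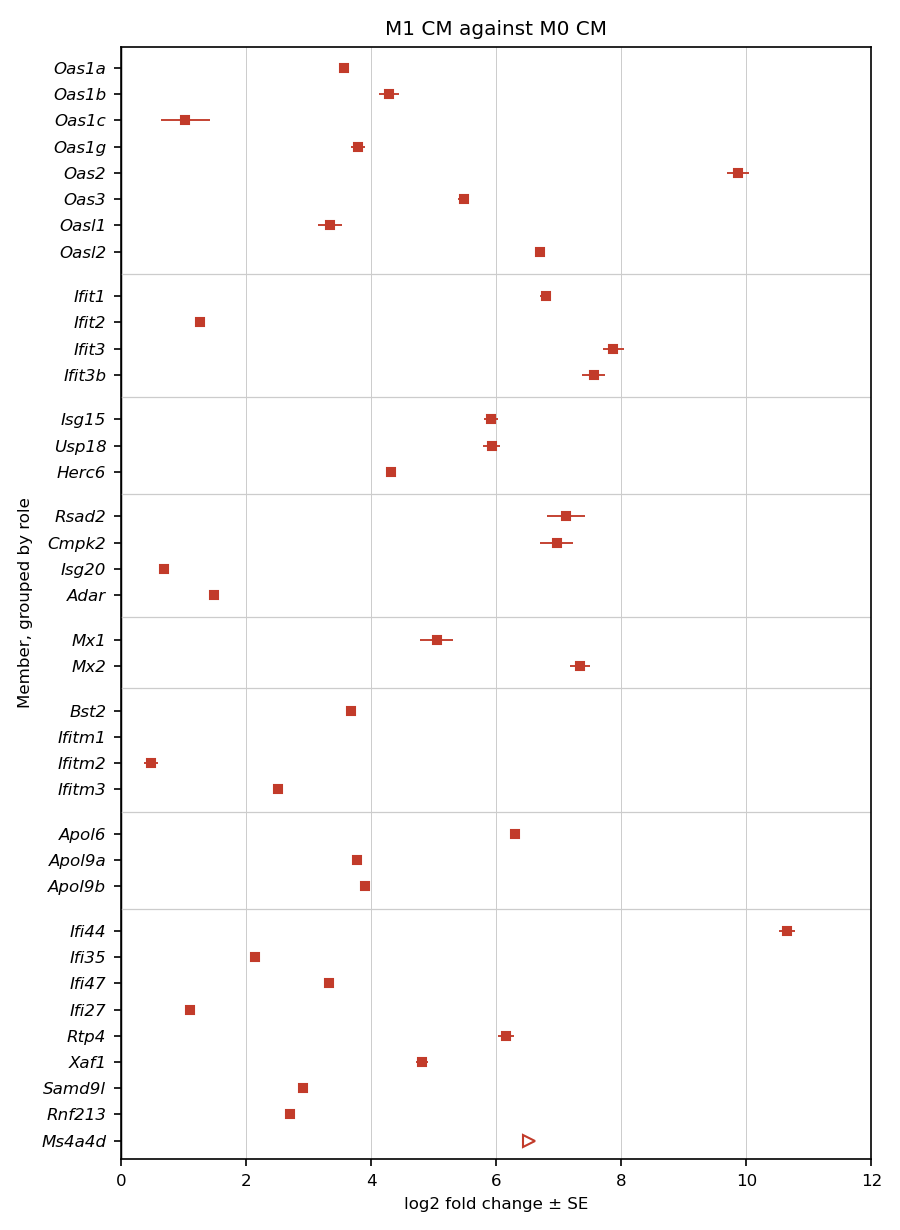
Log2 fold change between M1 CM and M0 CM (x axis, bars are the SE) for each gene, grouped by role. All 36 tested genes lie above 0, from 0.48 for Ifitm2 to 10.65 for Ifi44, the open triangle marks the lower bound for Ms4a4d, which had no counts in M0 CM, and Ifitm1 has no value.

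In medium from interleukin-4-treated macrophages (M2 CM), 3 genes were higher than in M0 CM, 14 were lower and 19 were not called. Those are 8.33% and 38.9% of the 36, beside 21.0% higher and 18.5% lower among all genes tested. The changes were small: the median log2 fold change was -0.37, beside -0.0035 over all genes, and 1 gene in each direction reached 2-fold. Oasl1 rose by 1.38 and Mx2 fell by 2.55 on the log2 scale. Bst2 and Ifit1 were the other 2 genes that rose. The apolipoprotein L genes Apol9a, Apol9b and Apol6 all fell. Without the library labelled melanoma, 2 genes were higher and 14 lower, Ifit1 losing its call. With library totals and no scaling factors, the split over all genes moved from 3042 higher and 2681 lower to 2201 and 3653, and that of the antiviral genes to 2 and 15.

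In medium from macrophages kept in SCC7-conditioned medium (TAM CM), the genes split. Against M0 CM, 10 were higher, 12 lower and 14 not called, which is 27.8% and 33.3% of the 36. Among all genes tested 35.1% were higher and 34.9% lower, so the antiviral genes were called about as often as other genes. The median log2 fold change was -0.19, beside 0.00086 over all genes, but the spread was wide, from -3.29 for Apol6 to 4.72 for Ifi44. Ifi44, Mx2, Oasl1 and Isg15 rose at least 2-fold. Apol6, Oas1c, Mx1, Ifi47, Apol9b and Oas3 fell at least 2-fold. Of these, Oas1c had 5 counts over the TAM CM libraries, and the call of Mx1 was lost without M0 CM 1 or without TAM CM 2. The M0 CM libraries serve as control in all of the comparisons above. Macrophage markers summed to 40.9 to 50.5 CPM in TAM CM, again mostly Cd14, with Tyrobp and the C1q genes at 0. Of the 4 tested, Cd14 rose, Cd68 fell (log2 fold change -0.44, edgeR adjusted p = 0.0324), and Mrc1 and Lyz2 were not called. The part of these markers in the results was not tested. How much of the SCC7-conditioned medium remained in TAM CM is not stated in the labels.

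**Figure D3:**
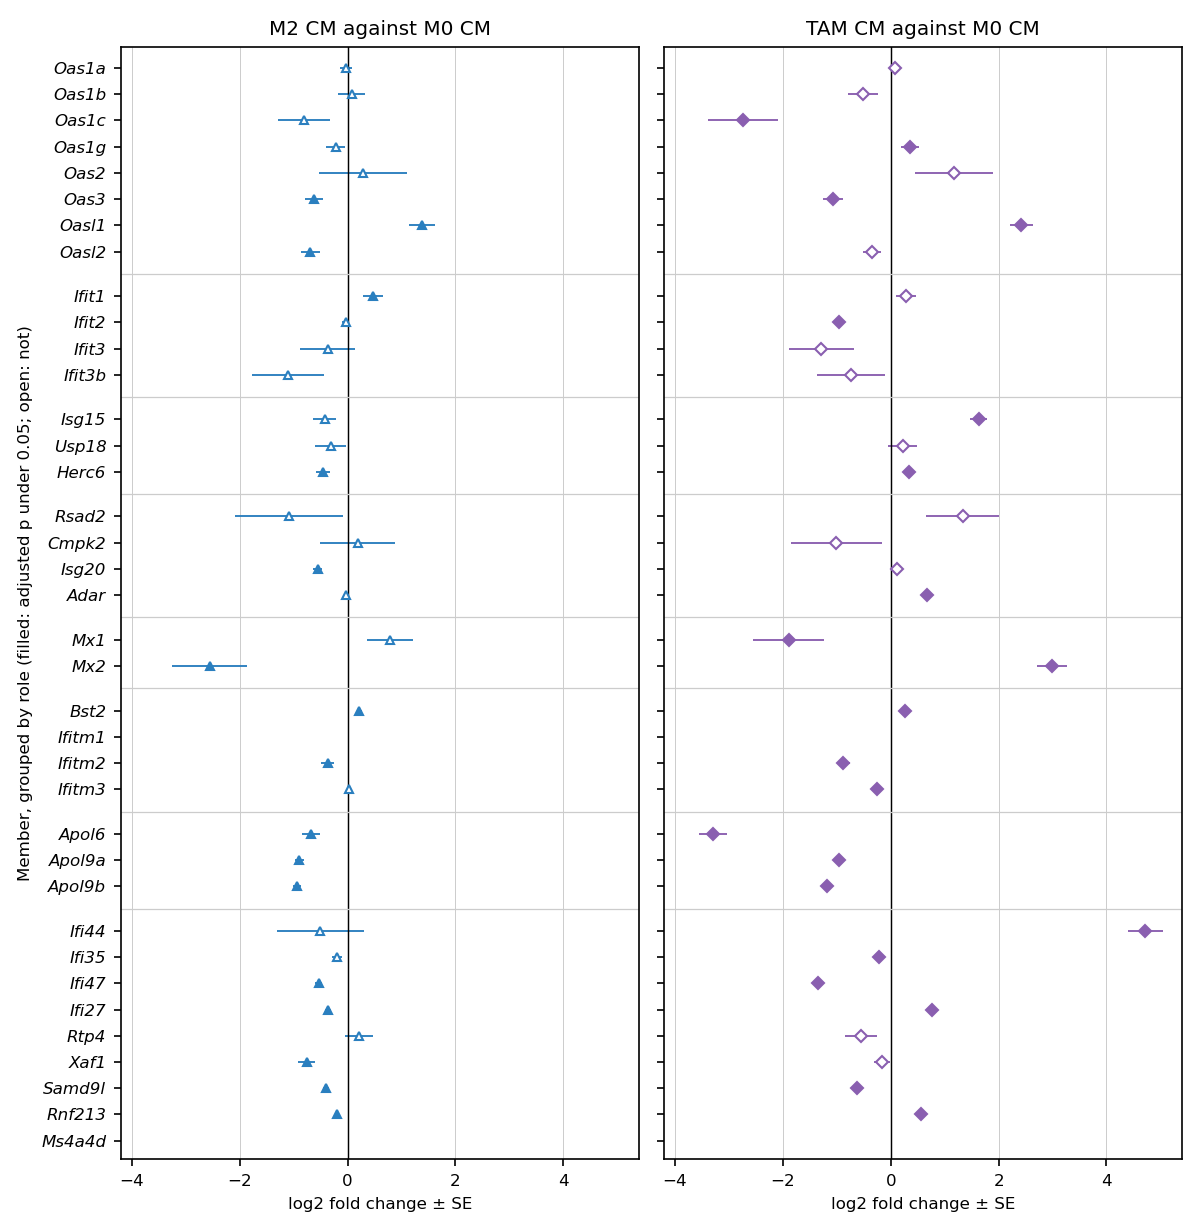
Log2 fold change against M0 CM (x axis, bars are the SE) in M2 CM on the left and TAM CM on the right, grouped by role, with filled symbols for an adjusted p under 0.05. In TAM CM the values run from -3.29 for Apol6 to 4.72 for Ifi44, and in M2 CM from -2.55 for Mx2 to 1.38 for Oasl1. Ifitm1 was not tested, and Ms4a4d had no more than 1 count in these groups and is not drawn.

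Set directly against M1 CM, TAM CM had less RNA of all 36 genes, with a median log2 fold change of -4.71, beside -0.02 over all genes. Of the 31 that passed the filter without the M1 CM libraries, 31 were lower, with a median of -4.29. Among all genes tested 34.4% were lower and 32.8% higher. Of the 36, 32 were at least 2-fold lower. The 4 that were closest were Ifi27, with a TAM CM mean at 79.3% of the M1 CM mean, Isg20 at 67.3%, Adar at 57.1% and Oasl1 at 52.7%. Isg15 reached 5.10%, Mx2 4.93% and Ifi44 1.64% of their M1 CM means, although each was higher in TAM CM than in M0 CM.

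Against M2 CM, TAM CM had 12 genes higher, 11 lower and 13 not called. That is 33.3% and 30.6% of the 36, beside 34.3% and 34.1% among all genes tested, so here too the shares were near those of other genes. Mx2, Ifi44, Rsad2, Isg15, Ifi27 and Oasl1 were at least 2-fold higher, and Mx1, Apol6 and Oas1c at least 2-fold lower. The call of Oas1c (log2 fold change -1.94, edgeR adjusted p = 0.0172) did not hold when M2 CM 2 (-1.69, adjusted p = 0.0696) or TAM CM 2 (-1.31, adjusted p = 0.118) was left out, in a range of 0.0125 to 0.118, and without TAM CM 3 the log2 fold change was -2.62. The median log2 fold change was 0.07, beside 0.01 over all genes. Without the library labelled melanoma, 12 were higher and 10 lower.

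The OAS family includes enzymes that sense double-stranded RNA and make short oligoadenylates, a messenger in the degradation of viral RNA. Oas2, Oas3, Oas1c, Oas1b, Oas1g and Oas1a lie together on chromosome 5 (120730333 to 120907521, mm10), and Oasl2 and Oasl1 on the same chromosome (114896936 to 114937915). All 8 rose in M1 CM, with a median log2 fold change of 4.04. Oas2 had the largest rise of the family. Its counts were 2, 1 and 2 in the M0 CM libraries, 1770, 1691 and 1440 with M1 CM, 0, 3 and 3 with M2 CM and 2, 7 and 2 with TAM CM. Only the M1 CM libraries stand clear of a handful of counts, and there the level was 79.6, 81.3 and 73.7 CPM. The counts of M1 CM over M0 CM, per scaled library size, had a ratio of 1010 (exact binomial 95% interval 432 to 3110, counting error only). Oas3, the longest of the OAS enzymes, was at 3.95, 3.98 and 2.41 CPM with M0 CM, 160.1, 153 and 151 with M1 CM, 2.60, 1.96 and 2.14 with M2 CM and 1.64, 1.81 and 1.48 with TAM CM. It rose 44.6-fold in M1 CM and fell in M2 CM, where 1 library overlapped the M0 CM range, and in TAM CM, where none did (log2 fold change -1.07, SE 0.177, edgeR adjusted p = 6.43e-07).

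Oasl2, an OAS-like protein that carries ubiquitin-like domains, was at 3.15, 3.83 and 4.10 CPM with M0 CM and 401, 385 and 363 CPM with M1 CM. In M2 CM it was at 2.88, 1.96 and 1.95 CPM and in TAM CM at 2.07, 3.03 and 3.46 CPM. The M1 CM libraries stood 104-fold above M0 CM, and the fall in M2 CM was called (log2 fold change -0.69, SE 0.176, edgeR adjusted p = 0.00228). Oasl1, which is known to restrain translation of Irf7, did otherwise. Its level was 0.893, 0.796 and 1.35 CPM with M0 CM, 12.6, 8.99 and 9.26 with M1 CM, 2.69, 2.41 and 2.80 with M2 CM and 4.53, 5.69 and 6.01 with TAM CM. No 2 media overlapped, and the order was M0 CM, M2 CM, TAM CM and M1 CM. Each step against M0 CM passed the test, at 2.60-fold in M2 CM, 5.35-fold in TAM CM and 10.1-fold in M1 CM, and so did TAM CM against M2 CM (2.06-fold, edgeR adjusted p = 1.13e-06).

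The Oas1 copies differed in level. Oas1a stood at 8.93, 8.45 and 8.43 CPM with M0 CM, 111, 97.9 and 97.8 with M1 CM, 8.03, 10.2 and 7.22 with M2 CM and 9.33, 9.49 and 8.51 with TAM CM. Oas1g was at 3.36, 2.83 and 4.63, then 53.7, 48.4 and 47.8, then 2.46, 4.06 and 2.80, and then 4.31, 4.52 and 4.99 CPM in the same order of media. For both, every M1 CM library stood far above the other media (11.9-fold and 13.8-fold over M0 CM). Oas1a overlapped between M0 CM, M2 CM and TAM CM, and for Oas1g every TAM CM library was above every M2 CM library (1.49-fold, edgeR adjusted p = 0.00257). Of the 50-base windows of Oas1a transcripts, 57.6% also occur in Oas1g, and 45.2% of those of Oas1g in Oas1a, so the split of counts between them is uncertain. Summed as 1 unit they were not called between TAM CM and M0 CM (adjusted p = 0.164), whereas Oas1g alone was just called higher there (1.28-fold, edgeR adjusted p = 0.0486). That call was lost in 11 of 20 other settings, with an adjusted p from 0.00356 to 0.254, among them leaving out M0 CM 1 or 2, M2 CM 3 or any TAM CM library. Oas1b, annotated as a polymorphic pseudogene, went from 1.24 ± 0.260 CPM with M0 CM to 24.3 ± 1.16 CPM with M1 CM and stood at 1.32 ± 0.391 and 0.870 ± 0.294 CPM with M2 CM and TAM CM. Oas1c was the faintest copy, at 0.596 ± 0.112 CPM with M0 CM, 1.21 ± 0.508 with M1 CM, 0.338 ± 0.107 with M2 CM and 0.0873 ± 0.0787 with TAM CM. Its TAM CM libraries held 2, 0 and 3 counts, a count ratio of M0 CM over TAM CM of 7.09 (exact binomial 95% interval 2.79 to 23.1). Without TAM CM 2 or TAM CM 3 its log2 fold change there was -2.12 or -3.43, and its rise in M1 CM was lost without M0 CM 1 (adjusted p = 0.101) or M1 CM 2 (adjusted p = 0.207) and by DESeq2 (adjusted p = 0.123), in a range of 0.00699 to 0.207 over the settings.

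The IFIT genes encode repeat proteins that bind RNA without the marks of a host cap. Ifit2, Ifit3, Ifit3b and Ifit1 lie on chromosome 19 within 99.3 kb (34550694 to 34650009, mm10). All 4 rose in M1 CM, by a median log2 fold change of 7.18. Ifit1 had 2.25, 2.69 and 2.84 CPM with M0 CM and 309, 284 and 267 CPM with M1 CM, with 3.16, 3.36 and 4.23 with M2 CM and 2.35, 3.21 and 3.82 with TAM CM. The M1 CM values stood 111-fold above M0 CM, and the M2 CM values were just above those of M0 CM without overlap (1.39-fold, edgeR adjusted p = 0.0373). The M2 CM call was lost in 7 of 20 settings (adjusted p from 0.00868 to 0.188), among them leaving out M0 CM 1 or 2, M2 CM 2 or 3, or TAM CM 2.

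Ifit3 was at 1.06, 1.04 and 1.83 CPM with M0 CM, 330.4, 323 and 270.5 with M1 CM, 1.11, 1.00 and 0.903 with M2 CM and 0.710, 0.136 and 0.815 with TAM CM. Its TAM CM values lay below all of M0 CM but were not called (log2 fold change -1.28, SE 0.603, edgeR adjusted p = 0.0867), with an adjusted p from 0.00143 to 0.223 over 20 settings, 5 of which called it. Ifit3b, which shares 44.5% of its 50-base windows with Ifit3, was at 0.510, 0.0994 and 0.626, then 89.5, 80.3 and 70.2, then 0.139, 0.201 and 0.238, and then 0.218, 0.0904 and 0.458 CPM in the same order of media, and the split of counts between the copies is uncertain. Both were raised in M1 CM, 235-fold and 188-fold. Ifit2, which is known to promote apoptosis as well as to bind RNA, had the highest level of the family in M0 CM, also per length (11.5 RPKM). It was at 42.1, 45.5 and 48.1 CPM with M0 CM, 111, 116 and 99.3 with M1 CM, 43.5, 46.1 and 42.6 with M2 CM and 24.3, 22.6 and 23.3 with TAM CM. Every TAM CM library was below every M0 CM and M2 CM library (log2 fold change against M0 CM -0.95, SE 0.0630, edgeR adjusted p = 2.71e-18), and the rise in M1 CM was 2.41-fold. No ISRE core was found in its promoter window, which holds a GAS motif, whereas those of the other 3 hold the ISRE core.

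Isg15 (ENSMUSG00000035692, chromosome 4, 156199424 to 156200818, mm10) encodes a ubiquitin-like protein that is attached to newly made proteins. Its level was 5.06, 5.02 and 4.72 CPM with M0 CM, 325, 316 and 256 with M1 CM, 3.44, 3.96 and 3.66 with M2 CM and 14.5, 15.9 and 15.4 with TAM CM. No 2 media overlapped, with M2 CM lowest and TAM CM between M0 CM and M1 CM. TAM CM was 3.09-fold above M0 CM (log2 fold change 1.63, SE 0.161, edgeR adjusted p = 1.38e-06) and 4.15-fold above M2 CM (adjusted p = 3.03e-07). M1 CM was 60.5-fold above M0 CM. The difference between M2 CM and M0 CM was not called (log2 fold change -0.42, SE 0.218, adjusted p = 0.154), and it was called in 6 of 20 settings, with an adjusted p from 0.00283 to 0.320.

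Usp18, the protease that removes ISG15 and restrains the type I receptor, was at 1.23, 1.04 and 0.867 CPM with M0 CM, 69.5, 66.8 and 57.6 with M1 CM, 0.697, 1.30 and 0.570 with M2 CM and 1.53, 0.904 and 1.32 with TAM CM. It rose 60.9-fold in M1 CM, close to the fold of Isg15, and the other media overlapped each other. Herc6, the main ligase that attaches ISG15 in mouse, was at 6.17, 7.11 and 7.42 CPM with M0 CM, 139, 146 and 128 with M1 CM, 4.32, 5.47 and 5.28 with M2 CM and 7.04, 9.85 and 9.01 with TAM CM. M1 CM was 20.0-fold higher, M2 CM was lower without overlap, and TAM CM overlapped M0 CM from above. The rise in TAM CM (1.27-fold, edgeR adjusted p = 0.00887) was lost without M0 CM 1 (adjusted p = 0.0708), without TAM CM 2 (0.101) and with no scaling factors (0.0623), in a range of 0.000369 to 0.101. Of the exon bases of Herc6, 13.7% overlap another annotated gene on the same strand.

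The enzymes that activate and transfer ISG15 were taken as a list of their own, also with earlier results of these data known. All 3 were higher in M1 CM. Uba7, which activates ISG15, was at 6.56 ± 0.207 CPM with M0 CM, 93.6 ± 6.49 with M1 CM, 2.24 ± 0.609 with M2 CM and 1.34 ± 0.779 with TAM CM. Ube2l6, which carries it, was at 22.3 ± 2.10, then 257 ± 10.6, then 15.8 ± 0.295, and then 9.23 ± 0.291 CPM. Both fell in TAM CM, where Isg15 rose (log2 fold change -2.29, SE 0.242, and -1.27, SE 0.0754, edgeR adjusted p = 2.8e-07 and 1.48e-20). Trim25, a ligase that acts on the RNA sensor Ddx58, rose with M1 CM, M2 CM and TAM CM, from 68.6 ± 2.55 CPM with M0 CM to 205 ± 5.18, 76.8 ± 1.99 and 85.7 ± 2.19 CPM.

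Rsad2 and Cmpk2 are neighbours on chromosome 12, within 37.1 kb (26442746 to 26479837, mm10). Rsad2, also called viperin, makes a nucleotide that ends viral RNA chains, and Cmpk2 is a mitochondrial nucleotide kinase. Rsad2 had 6, 1 and 0 counts with M0 CM, 371, 361 and 268 with M1 CM, 3, 0 and 0 with M2 CM and 5, 5 and 7 with TAM CM, and its M1 CM level was 16.7, 17.4 and 13.7 CPM. Cmpk2 had 6, 2 and 1 counts with M0 CM, 488, 366 and 293 with M1 CM, 4, 4 and 2 with M2 CM and 0, 2 and 2 with TAM CM, with 22.0, 17.6 and 15.0 CPM with M1 CM. Outside M1 CM neither gene had more than 7 counts in a library. The count ratio of M1 CM over M0 CM was 147 (exact binomial 95% interval 71.1 to 367) for Rsad2 and 131 (68.8 to 288) for Cmpk2, and most of the M0 CM counts came from library 1, without which 1 and 3 counts remain and the fitted log2 fold changes were 9.03 and 7.84 in place of 7.12 and 6.97. Rsad2 was also called higher in TAM CM than in M2 CM, on 17 against 3 counts (ratio 5.90, 1.71 to 31.4). All 3 of those counts are in M2 CM 1, so without it M2 CM holds 0. Against M0 CM the TAM CM value of Rsad2 was not called (edgeR adjusted p = 0.0787), except without M0 CM 1 (adjusted p = 0.00443).

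Adar and Isg20 were the steadier members of the enzyme group. Adar, which edits adenosine to inosine in double-stranded RNA, was at 74.4, 68.9 and 69.9 CPM with M0 CM, 202, 203 and 192 with M1 CM, 69.5, 69.1 and 70.8 with M2 CM and 118, 109 and 114 with TAM CM. TAM CM stood between M0 CM and M1 CM without overlap (log2 fold change against M0 CM 0.67, SE 0.0406, edgeR adjusted p = 2.35e-20), and M2 CM overlapped M0 CM. Of its exon bases, 16.8% overlap the gene Chrnb2 on the opposite strand, and whether the counting used strand is not known from the labels. Isg20, an RNA exonuclease, was at 16.5, 16.4 and 15.8 CPM with M0 CM, 24.0, 27.9 and 26.6 with M1 CM, 11.5, 12.1 and 9.55 with M2 CM and 17.4, 16.9 and 18.6 with TAM CM. Its rise in M1 CM was 1.61-fold and its fall in M2 CM 1.47-fold, both without overlap, and the difference between TAM CM and M0 CM was not called (adjusted p = 0.223).

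The Mx genes encode dynamin-like GTPases that trap viral nucleoproteins, Mx1 in the nucleus and Mx2 in the cytoplasm of mouse cells. They lie on chromosome 16, within 114 kb (97447035 to 97560900, mm10), and Mx2 is annotated as a polymorphic pseudogene. Both rose in M1 CM, and they moved in opposite directions in TAM CM. Mx2 was at 0.255, 0.348 and 0.337 CPM with M0 CM, 53.4, 50.9 and 49.8 with M1 CM, 0.0464, 0 and 0.0950 with M2 CM and 3.11, 1.94 and 2.55 with TAM CM. As counts, that is 6, 7 and 7 with M0 CM, 1, 0 and 2 with M2 CM and 57, 43 and 50 with TAM CM. The 4 media did not overlap, with M2 CM lowest. Mx2 rose 7.92-fold in TAM CM (log2 fold change 2.98, SE 0.281, edgeR adjusted p = 1.82e-13). In M2 CM it fell, with a count ratio of M0 CM over M2 CM of 6.47 (exact binomial 95% interval 1.92 to 34), and without M2 CM 3, which leaves 1 count in M2 CM, the fitted log2 fold change was -3.39 in place of -2.55. TAM CM over M2 CM had a count ratio of 52.0 (17.5 to 255), and there the fitted log2 fold change was 6.38 without M2 CM 3, in place of 5.54.

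Mx1 was at 0.680, 0.199 and 0.241 CPM with M0 CM, 15.1, 13.8 and 10.1 with M1 CM, 0.557, 0.752 and 0.713 with M2 CM and 0.164, 0 and 0.153 with TAM CM. As counts, M0 CM held 16, 4 and 5, M2 CM 12, 15 and 15 and TAM CM 3, 0 and 3. M0 CM 1 was the highest of its group and TAM CM 2 had no count. The fall in TAM CM (log2 fold change -1.89, SE 0.663, edgeR adjusted p = 0.0111) was lost without M0 CM 1 (-1.09, adjusted p = 0.215) and without TAM CM 2 (-1.26, adjusted p = 0.0846), in a range of 0.00508 to 0.215 over the settings. The Mx1 counts of M2 CM over TAM CM had a ratio of 6.73 (exact binomial 95% interval 2.85 to 19.4), the reverse of the order of Mx2, and the log2 fold change of TAM CM over M2 CM was -2.05 without TAM CM 2, in place of -2.68. The rises in M1 CM were 33.1-fold for Mx1 and 162-fold for Mx2. Without M0 CM 1 the Mx1 log2 fold change in M1 CM was 5.85 in place of 5.05, and its difference between M2 CM and M0 CM, not called with all libraries (0.79, adjusted p = 0.148), was called higher (1.58, adjusted p = 0.0151).

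Bst2 (ENSMUSG00000046718, chromosome 8, 71534255 to 71537456, mm10), also called tetherin, holds budding virus particles at the cell membrane. It was at 42.9, 44.3 and 43.1 CPM with M0 CM, 564, 579 and 528 with M1 CM, 51.2, 52.7 and 47.5 with M2 CM and 50.6, 51.9 and 53.1 with TAM CM. M1 CM was 12.8-fold above M0 CM (log2 fold change 3.68, SE 0.0413, edgeR adjusted p = 5.73e-51). M2 CM and TAM CM overlapped each other and both lay above M0 CM without overlap, by 1.16-fold (adjusted p = 0.000151) and 1.20-fold (adjusted p = 3.13e-06). Ifitm3, which blocks fusion of viruses in endosomes, was the highest of the genes per length in every medium. Its level was 160.2, 176 and 170.1 CPM with M0 CM, 966, 980.3 and 928 with M1 CM, 173, 182 and 162 with M2 CM and 138, 141 and 146 with TAM CM. It rose 5.69-fold in M1 CM and fell slightly in TAM CM (1.19-fold, edgeR adjusted p = 3.06e-07).

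Ifitm2, a relative of Ifitm3 on chromosome 7, had the smallest rise in M1 CM of all 36 genes. It was at 31.8, 31.1 and 30.3 CPM with M0 CM, 39.3, 50.3 and 40.8 with M1 CM, 26.6, 26.2 and 19.4 with M2 CM and 16.2, 17.0 and 17.6 with TAM CM. No 2 media overlapped, and the order was TAM CM, M2 CM, M0 CM and M1 CM. The fall in TAM CM was 1.84-fold (edgeR adjusted p = 2.05e-05), and the fall in M2 CM (adjusted p = 0.0216) was lost without M0 CM 1 (0.0709) or M0 CM 2 (0.0570), in a range of 7.99e-07 to 0.0709. Of its 50-base windows, 48.5% occur in other annotated genes and 40.9% of its exon bases overlap 1 of them, so its counts are uncertain.

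The apolipoprotein L genes Apol6, Apol9a and Apol9b lie on chromosome 15 (77044729 to 77736382, mm10). The family binds lipids, and all 3 rose in M1 CM and fell in both M2 CM and TAM CM. Apol6 was at 3.23, 2.73 and 2.94 CPM with M0 CM, 241, 247 and 218 with M1 CM, 2.00, 1.76 and 1.81 with M2 CM and 0.491, 0.226 and 0.204 with TAM CM. Its TAM CM libraries, at 9, 5 and 4 counts, were the lowest, and no 2 media overlapped. Apol6 fell by 3.29 on the log2 scale in TAM CM (SE 0.260, edgeR adjusted p = 5.56e-16) and was also lower there than in M2 CM (6.09-fold, adjusted p = 5.21e-11). The fitted gap between M1 CM and TAM CM, 771-fold, was the widest of the 36 genes.

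Apol9a was at 30.8, 32.0 and 31.2 CPM with M0 CM, 444, 442 and 404 with M1 CM, 13.7, 18.7 and 18.4 with M2 CM and 15.3, 16.5 and 16.2 with TAM CM. Apol9b was at 17.1, 16.8 and 16.1, then 256, 255 and 235, then 8.31, 8.73 and 9.08, and then 8.02, 6.69 and 7.43 CPM in the same order of media. Of the 50-base windows of Apol9b, 52.3% occur in Apol9a, so the split between them is uncertain, and their levels moved side by side. For both genes M2 CM and TAM CM lay below M0 CM without overlap, by 1.86-fold and 1.95-fold for Apol9a and 1.92-fold and 2.27-fold for Apol9b. The small difference of Apol9b between TAM CM and M2 CM (1.18-fold, edgeR adjusted p = 0.0185) was lost without M2 CM 3 (0.0717), without TAM CM 2 (0.139) and with the copies summed (0.0918), in a range of 0.00582 to 0.139.

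Rnf213 (chromosome 11, 119393100 to 119487418, mm10) encodes a very large ubiquitin ligase that acts on bacteria and viruses in cells. It was at 279.5, 269.9 and 282 CPM with M0 CM, 1869, 1777 and 1746 with M1 CM, 245, 241 and 239 with M2 CM and 400.4, 409 and 411 with TAM CM. No 2 media overlapped, with M2 CM lowest and TAM CM second to M1 CM. TAM CM rose 1.47-fold over M0 CM (edgeR adjusted p = 1.8e-21), M2 CM fell 1.15-fold (adjusted p = 1.21e-06) and M1 CM rose 6.49-fold. Ifi27, a small membrane protein, kept the same order of media. It was at 42.3, 42.9 and 43.0 CPM with M0 CM, 92.8, 92.6 and 90.0 with M1 CM, 34.7, 32.1 and 32.5 with M2 CM and 69.9, 71.7 and 76.8 with TAM CM. Its rise in TAM CM was 1.70-fold (log2 fold change 0.77, SE 0.0486, edgeR adjusted p = 1.53e-19), and TAM CM remained below M1 CM by 1.26-fold.

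Samd9l and Ifi47 took the other course. Samd9l, which shuts down translation in infected cells, was at 38.4, 39.2 and 36.9 CPM with M0 CM, 291, 291 and 279 with M1 CM, 28.1, 28.6 and 30.0 with M2 CM and 23.5, 25.0 and 25.6 with TAM CM. Ifi47 was at 27.9, 32.1 and 31.1 CPM with M0 CM, 321, 294 and 299.9 with M1 CM, 20.2, 22.9 and 19.8 with M2 CM and 11.5, 11.1 and 13.3 with TAM CM. In both genes the order was TAM CM, M2 CM, M0 CM and M1 CM with no overlap, and all steps against M0 CM were called. Ifi47 fell 1.45-fold in M2 CM and 2.54-fold in TAM CM, and Samd9l 1.32-fold and 1.54-fold. Xaf1, a partner of the apoptosis inhibitor XIAP, was at 6.67, 7.41 and 7.42 CPM with M0 CM, 202, 209.7 and 193 with M1 CM, 5.06, 4.87 and 2.80 with M2 CM and 7.04, 5.33 and 7.03 with TAM CM. It rose 28.2-fold in M1 CM and fell 1.69-fold in M2 CM, and TAM CM overlapped M0 CM.

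Ifi44 had the largest fitted log2 fold change of all 36 genes in both M1 CM and TAM CM. Its level was 0.0425, 0.0497 and 0.193 CPM with M0 CM, 165, 161 and 151 with M1 CM, 0.0464, 0.1003 and 0.0475 with M2 CM and 2.67, 2.71 and 2.44 with TAM CM. As counts, M0 CM held 1, 1 and 4, M2 CM 1, 2 and 1 and TAM CM 49, 60 and 48. M0 CM and M2 CM were near 0, and the TAM CM libraries lay together well above them and far below M1 CM. The count ratio over M0 CM was 1710 (exact binomial 95% interval 785 to 4660) in M1 CM and 28.0 (12.6 to 77.6) in TAM CM, and TAM CM over M2 CM was 40.8 (15.6 to 152). M0 CM 3 held 4 of the 6 counts in M0 CM, and without it 2 counts were left. The fitted log2 fold changes were then 11.58 in M1 CM and 5.66 in TAM CM, in place of 10.65 and 4.72. In M1 CM the interval of Ifi44 overlaps that of Oas2, and Ms4a4d has only a lower bound. The first rank of Ifi44 there is thus uncertain.

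Of the remaining genes, Rtp4, a chaperone of membrane receptors that also binds viral RNA, went from 1.77 ± 0.349 CPM with M0 CM to 128 ± 3.48 with M1 CM, with 2.10 ± 0.757 with M2 CM and 1.19 ± 0.562 with TAM CM. Ifi35, which binds the STAT-interacting protein Nmi, was at 15.2 ± 1.28 CPM with M0 CM, 67.0 ± 7.67 with M1 CM, 13.2 ± 1.09 with M2 CM and 13.0 ± 0.372 with TAM CM. Its small fall in TAM CM (1.16-fold, edgeR adjusted p = 0.0322) was lost without M0 CM 2 or 3, without TAM CM 2 or 3 and by DESeq2, with an adjusted p from 0.00238 to 0.165. Ms4a4d, a membrane protein gene, had 92, 93 and 83 counts in M1 CM, 1 count in TAM CM 2 and 0 in the other 8 libraries. Taking 3 counts over the group as the floor, M1 CM was at least 91.9-fold higher than M0 CM.

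The genes that make and read the interferon signal were taken as lists beside the antiviral genes. These lists too were made with earlier results of these data known, so their counts are descriptions and not tests. Of 21 interferon genes, 19 had no count in any library, Ifng among them, and none passed the filter. Ifnb1 had 8, 3 and 2 counts in the M1 CM libraries and 2 counts in M0 CM 1, and Ifna13 had 3 counts in M1 CM 1. A count of 0 allows up to 3 counts, or 0.128 to 0.164 CPM depending on the library, for counting error only. RNA of the ligands was thus at or near the floor in the SCC7 cells of all 4 media, and Ifnb1 in M1 CM 1 was the 1 value above it.

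The counts of pathway genes below are to be read beside the shares of all genes tested that were called against M0 CM, 27.7% higher and 25.6% lower in M1 CM, 21.0% and 18.5% in M2 CM, and 35.1% and 34.9% in TAM CM. Of 9 receptor and kinase genes, 8 were tested, and Ifnlr1 had no counts. Against M0 CM, 4 rose and 0 fell with M1 CM, with Jak2 going from 31.6 ± 1.53 to 76.2 ± 2.06 CPM. The other 3 were Ifnar2, Ifngr2 and Jak1. In TAM CM 3 rose (Ifnar1, Ifnar2 and Jak2) and 3 fell (Ifngr1, Ifngr2 and Tyk2), 37.5% each and near the shares of all genes. Ifnar1, a chain of the type I receptor, was at 60.4 ± 2.06 CPM with M0 CM and 75.1 ± 1.30 with TAM CM (log2 fold change 0.31, SE 0.0454, edgeR adjusted p = 2.88e-08). Ifngr1, the ligand-binding chain of the interferon-gamma receptor, was at 43.8 ± 1.23 and 26.1 ± 1.22 CPM (log2 fold change -0.75, SE 0.0582, adjusted p = 3.07e-16). In M2 CM 1 rose and 2 fell, the rise being that of Ifngr2, from 48.8 ± 0.636 to 84.8 ± 1.98 CPM.

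Of 7 tested STAT and IRF genes, 6 rose in M1 CM and Irf3 fell, 1 rose and 3 fell in M2 CM, and 1 rose and 4 fell in TAM CM. Stat2 was at 25.7 ± 1.82 CPM with M0 CM and 18.1 ± 1.38 with TAM CM, and fell by 0.50 on the log2 scale (edgeR adjusted p = 8.13e-10). The 1 that rose with TAM CM was Irf9, the DNA-binding partner of STAT2, from 10.02 ± 0.586 to 13.2 ± 0.896 CPM (log2 fold change 0.40, SE 0.0867, adjusted p = 6.4e-05). Irf1, the factor named above for interferon-gamma, was at 71.9 ± 2.38 CPM with M0 CM, 522 ± 12.3 with M1 CM and 72.0 ± 2.79 with TAM CM, the last not called against M0 CM. The median log2 fold change of the 7 was 2.86 in M1 CM and -0.22 in TAM CM.

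**Figure D4:**
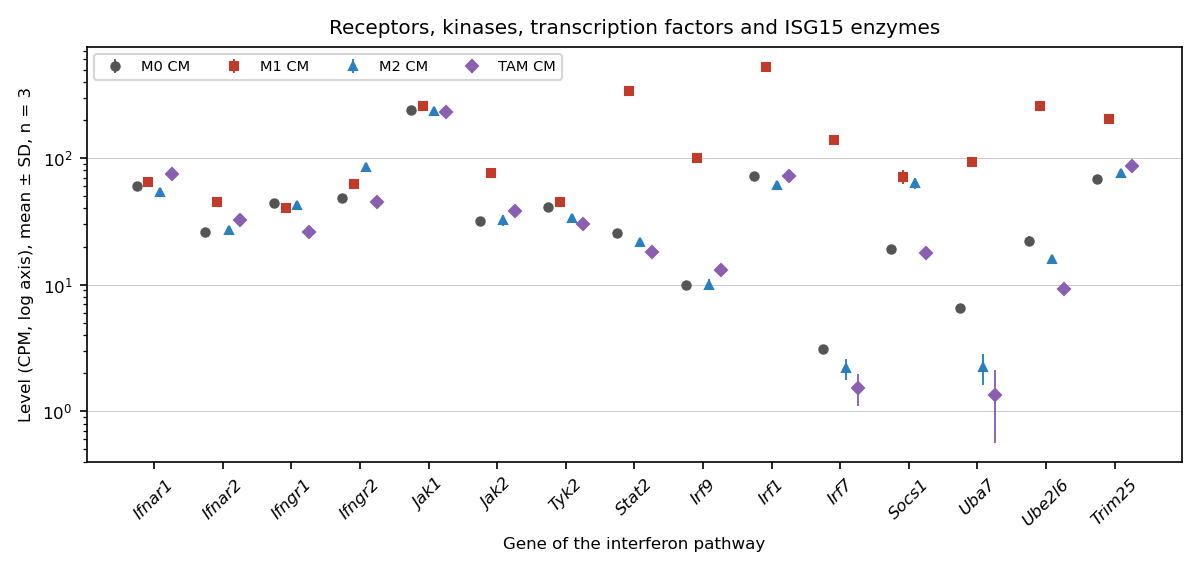
Mean CPM (log axis, bars are the SD of 3 libraries) of receptors, kinases, transcription factors and ISG15 enzymes in the 4 media. All genes drawn except Ifnar1, Ifngr1 and Ifngr2 stand highest in M1 CM, some by little. Uba7 and Ube2l6 stand lowest in TAM CM, and so do Stat2, Irf7, Socs1, Ifngr1, Ifngr2, Jak1 and Tyk2, some by little.

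Of 9 genes for sensors of foreign RNA and DNA, with the adaptors Mavs and Tmem173 counted among them, 8 rose and 0 fell in M1 CM. In TAM CM 7 fell and 1 rose, and in M2 CM 3 fell and 1 rose. Ddx58, the RNA sensor RIG-I, was at 86.5 ± 0.646 CPM with M0 CM, 337 ± 6.47 with M1 CM, 71.6 ± 2.48 with M2 CM and 49.6 ± 5.30 with TAM CM. Eif2ak2, the kinase PKR that halts translation on double-stranded RNA, was at 78.7 ± 3.69 CPM with M0 CM and 55.5 ± 1.65 with TAM CM (edgeR adjusted p = 7.09e-15). The 1 sensor that rose with M2 CM and with TAM CM was the DNA sensor Cgas, at 31.8 ± 0.328 CPM with M0 CM, 38.5 ± 3.04 with M2 CM and 48.8 ± 3.95 with TAM CM. Of 5 feedback inhibitors 3 rose and 1 fell in M1 CM, 3 rose in M2 CM, and 1 rose and 2 fell in TAM CM. Ptpn2, a phosphatase that acts on JAK and STAT proteins, was the 1 that rose in all of M1 CM, M2 CM and TAM CM with the highest level with TAM CM, 70.3 ± 0.276 CPM beside 46.2 ± 0.727 CPM with M0 CM.

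Promoter matches were also counted by the course of the genes in TAM CM. Of the 8 genes with a window that rose there, 3 held the ISRE core (Oas1g, Isg15 and Bst2). Of the 10 with a window that fell, 6 held it, and of the 10 not called, 5. Ifi44, Oasl1, Adar, Herc6 and Rnf213 rose in TAM CM with no ISRE core in the window, and no test was made of these counts.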

How the data were processed

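RNA of SCC7 cells in 12 libraries, 3 for each medium, was sequenced by a standard Illumina mRNA protocol after Trizol extraction, per the labels' protocols. The authors deposited raw read counts per Ensembl gene, with no scaling. The submitters' processing notes list HISAT2 2.0 and mm10. The counter, annotation release and strand were not given in the sources used here. Symbols, exon lengths and coordinates came from GENCODE M21, which may not be the release the authors used. It named 55141 of 55487 genes.

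The fit used edgeR 4.0.16 in R 4.3.3: filterByExpr by group, TMM scaling, robust glmQLFit with 1 mean per group over all 12 libraries, and glmQLFTest with Benjamini-Hochberg adjustment over 14509 genes. Genes below the filter held 0.0815% of counts. The biological coefficient of variation was 3.65%, and the r of log2 CPM between libraries of a group, across genes, was 0.992 to 0.994. The SE was derived as the log2 fold change divided by the root of the F statistic. Where a group held 10 counts or fewer, the count ratio has an exact binomial 95% interval.

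The members and lists were chosen with earlier results of these data known. Library values are given, within each role, for up to 4 members (5 in the OAS family and the other induced genes) with the highest mean CPM over all libraries. Oasl1 and Ifi44 were added after their values were seen, as were the pathway genes beyond the 4 most abundant of each list (Ifngr1, Irf9 and Cgas, and those named only for a call). Motifs were searched on both strands by exact letters. The fit was tested on simulated counts for M1 CM against M0 CM only, with changed genes drawn from those above a low level in M0 CM. The faintest genes and the other comparisons were not covered. Some pathway genes are not reported here.

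Alternatives were DESeq2 1.42.0 (Wald test), its size factors in edgeR, no scaling, other filters, fits of 2 groups only, near copies summed, the replicate number as a block, and each library left out in turn. Same-numbered libraries of different media had an r of deviations from their group means of -0.0289 to 0.0507 over 18 pairs. For libraries of other numbers it was -0.0516 to 0.0515 over 36 pairs. These small values do not settle whether the numbers pair the libraries.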

Additional observations from a re-analysis of the deposited data

How the results depend on the processing

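No called value changed sign among the 3555 values recomputed for the antiviral genes, and 26 values that were called neither with all libraries nor in the setting did. Of the 3555, 3462 kept their side of the threshold, 50 lost a call and 43 gained one. Against M0 CM, 35 of 36 calls in M1 CM, 15 of 17 in M2 CM and 18 of 22 in TAM CM held wherever the gene was tested. So did 36 of 36 for TAM CM against M1 CM and 19 of 23 for TAM CM against M2 CM. The filter of at least 10 counts in at least 9 libraries left 27 genes tested. Calls such as those of Ifi44 and Mx2 therefore rest on 19 settings and not 20. The calls lost somewhere were Oas1c (M1 CM), Ifit1 and Ifitm2 (M2 CM), Herc6, Ifi35, Mx1 and Oas1g (TAM CM), and Apol9b, Oas1c, Oas3 and Rtp4 (TAM CM against M2 CM). Every count stayed within 1.5 times. Leaving out 1 library gave 35 to 36 higher in M1 CM, 2 to 3 higher and 14 to 15 lower in M2 CM, 8 to 10 higher and 10 to 14 lower in TAM CM, 36 lower for TAM CM against M1 CM, and 12 to 14 higher and 9 to 12 lower for TAM CM against M2 CM. With the replicate number as a block, 36 were higher in M1 CM. With that block M2 CM had 2 higher and 15 lower, and TAM CM had 9 higher and 13 lower. TAM CM then had 36 lower against M1 CM, and 12 higher and 10 lower against M2 CM. With no scaling factors TAM CM had 8 higher and 14 lower, and DESeq2 gave 35 higher in M1 CM. Outside M1 CM, Oas2, Ifit3b, Rsad2, Cmpk2 and Ms4a4d rest on few counts, which limits the precision of their differences between the other media. The cause of the lost and gained calls was not tested.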
